A study of Mus musculus with 33 samples.

Results

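Costimulatory and checkpoint genes of antigen-presenting cells were followed across 9 sorted populations of kidney and spleen. The set holds 9 genes taken by name (Cd80, Cd86, Cd83, Cd40, Cd274, Pdcd1lg2, Icosl, Cd200 and Btla) out of 24054 gene symbols, and each of the 9 is among the 14258 genes that passed the filter on low counts. Pdcd1lg2, Cd200 and Btla passed through the populations in which they are high, since some libraries of other populations held 0 reads of them.

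These genes encode surface proteins through which an antigen-presenting cell sets how strongly a T cell answers to antigen. CD80 and CD86 are B7 proteins that bind the activating receptor CD28 and the inhibitory receptor CTLA-4, and ICOSL, a related B7 protein, binds ICOS. CD40 is a receptor of the TNF receptor family that takes the CD40L signal of T cells into the cell through TRAF adaptors and NF-kB, and CD83 is a surface marker of mature dendritic cells. PD-L1 (Cd274) and PD-L2 (Pdcd1lg2) bind the inhibitory receptor PD-1. CD200 binds CD200R1 on myeloid cells and dampens them, and BTLA is an inhibitory receptor that binds HVEM, the product of Tnfrsf14.

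All cells came from C57BL/6 mice of 10 weeks with the genotype Clec9a-Cre/Cre Rosa-YFP/YFP, a fate-mapping design in which a cell that has expressed Clec9a, or whose precursor has, makes YFP. Cre sits in both copies of Clec9a in every group, YFP- cells included, and no group of another genotype is described here, so levels need not hold for mice with intact Clec9a. Kidney cells were CD45+ Ly6C- MHCII+ and gave CD64+ F4/80hi CD11blow cells, YFP- (3 libraries) and YFP+ (3), CD64+ F4/80low CD11bhi cells, YFP- (2) and YFP+ (5), and CD64- CD11c+ YFP+ dendritic cells of type 1 (cDC1, sorted on CD24, 6) and type 2 (cDC2, sorted on CD11b, 5). Spleen gave autofluorescent F4/80+ YFP- red pulp macrophages (RPM, 3), cDC1 (MHCII+ CD11c+ CD24+ CD205+ YFP+, 3) and cDC2 (MHCII+ CD11c+ CD11b+ YFP+, 3). Levels are TPM, a share of all transcripts in a library, which allows for gene length and so can be compared between genes. Differences are log2 folds fitted to read counts, and a gene was called at an adjusted p under 0.05 with an absolute log2 fold of at least 1. The labels do not say whether replicate libraries came from separate animals, so p-values measure the spread between these libraries, which may be technical. In bulk RNA of a sorted population, fewer cells that express a gene and less RNA of it per cell cannot be told apart.

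Promoter windows are shown for Cd80 and Btla, which each match 1 of the patterns searched. They are also shown for Cd274 and Pdcd1lg2, which lie beside each other on chromosome 19 and are both high in spleen cDC2. They run from 250 bases before to 50 bases after the gene start that RefSeq gives on GRCm38.p6, and 6 of the 9 genes (Cd80, Btla, Cd274, Pdcd1lg2, Icosl and Cd200) had a window. The Cd80 window lies inside the span that GENCODE M21 gives the gene, chr16:38455561-38496335 on the + strand, so its start is not the GENCODE start. The windows are chr16:38458683-38458982, + strand, for Cd80, chr16:45224087-45224386, + strand, for Btla, chr19:29367188-29367487, + strand, for Cd274 and chr19:29410669-29410968, + strand, for Pdcd1lg2. Capitals mark a match to a motif.
Cd80: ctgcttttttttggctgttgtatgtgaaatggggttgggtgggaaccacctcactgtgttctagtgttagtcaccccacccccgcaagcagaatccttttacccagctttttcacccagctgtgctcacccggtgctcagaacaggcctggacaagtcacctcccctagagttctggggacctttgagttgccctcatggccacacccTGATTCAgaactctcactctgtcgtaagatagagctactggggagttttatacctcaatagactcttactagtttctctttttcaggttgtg
Btla: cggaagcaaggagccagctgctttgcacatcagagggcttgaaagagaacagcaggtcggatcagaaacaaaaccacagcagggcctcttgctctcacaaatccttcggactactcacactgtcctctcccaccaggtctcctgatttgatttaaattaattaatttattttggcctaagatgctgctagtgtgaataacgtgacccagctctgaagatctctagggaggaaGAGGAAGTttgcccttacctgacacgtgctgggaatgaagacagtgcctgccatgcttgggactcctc
Cd274: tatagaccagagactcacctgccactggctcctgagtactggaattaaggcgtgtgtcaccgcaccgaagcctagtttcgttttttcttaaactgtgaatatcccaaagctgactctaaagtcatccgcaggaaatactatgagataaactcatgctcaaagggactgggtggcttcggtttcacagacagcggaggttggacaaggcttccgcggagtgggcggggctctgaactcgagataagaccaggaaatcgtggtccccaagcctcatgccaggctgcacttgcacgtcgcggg
Pdcd1lg2: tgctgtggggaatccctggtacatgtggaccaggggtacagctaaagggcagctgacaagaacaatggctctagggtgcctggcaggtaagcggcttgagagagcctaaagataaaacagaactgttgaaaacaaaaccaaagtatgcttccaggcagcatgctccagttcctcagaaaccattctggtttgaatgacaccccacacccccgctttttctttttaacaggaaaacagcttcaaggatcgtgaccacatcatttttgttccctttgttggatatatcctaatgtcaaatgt
Motifs were searched on both strands. The Cd80 window holds the letters TGATTCA, which begin at -42 from the RefSeq start. They match TGANTCA, the pattern searched for AP-1, found in 7.81% of 32851 promoter windows. The middle base of that pattern may be any base, so the match is not taken as an AP-1 site. The Btla window holds the PU.1 ETS core GAGGAAGT at -18, found in 3.2% of windows. None of the 6 windows holds an interferon-response core, GAAA and GAAA with 2 bases of any kind between them (3.44% of windows), the GAS letters TTCNNNGAA (8.3%) or a kB site, GGGA and TTCC with 2 bases of any kind between them (1.47%). These matches describe letters in a window and show no binding. Cd274 and Pdcd1lg2 are 22.8 kb apart with 0 annotated genes between them, and Btla and Cd200, on chromosome 16, are 124.5 kb apart, also with 0 genes between. GENCODE M21 (GRCm38) places a gene on the opposite strand over Cd274 and another, A930007I19Rik, over Pdcd1lg2. The counts do not keep strand. A930007I19Rik was counted as a gene of its own, and the gene over Cd274 was not. The overlap is of whole gene spans, and overlap of exons was not examined. How far antisense reads enter the counts of Cd274 and Pdcd1lg2, or overlapping reads are lost from them, is therefore not known.

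Gene reads ranged from 8729224 to 23000575 per library. Marker levels are given here beside the labels. The summed level of 10 cDC1 markers was 6706 to 8795 TPM in kidney cDC1 and 7207 to 7542 in spleen cDC1, against 2747 to 3646 in RPM and at most 1309 in the others, and that of 6 markers shared by dendritic cells was 237 to 1159 TPM in the 4 cDC populations, 290 to 400 in CD11bhi cells, 22 to 39.0 in F4/80hi cells and 17.1 to 58.4 in RPM. The sum of 10 cDC2 markers was higher in CD11bhi cells than in most cDC2 libraries, and spleen cDC2 overlapped F4/80hi cells. It was 5999 to 7335 TPM in CD11bhi cells, 3674 to 6221 in kidney cDC2 and 1810 to 1962 in spleen cDC2, against 783 to 1927 in F4/80hi cells, 1045 to 1533 in RPM and at most 36.9 in cDC1. C1qa, a complement gene of tissue macrophages, was at 7226 to 8590 TPM in F4/80hi cells, 332 to 1293 in CD11bhi cells and 0.49 to 32.5 in kidney cDC2. Clec9a reached 0.83 TPM at most, in spleen cDC1, in mice whose Clec9a copies carry Cre. Library names start with GS or BS, a prefix the labels do not explain: GS covers spleen and F4/80hi cells and BS covers CD11bhi cells, while both prefixes occur among the kidney dendritic cells. The prefix and the population cannot be told apart in CD11bhi against F4/80hi cells.

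Some libraries stood apart for these genes. The 7 libraries of sort code SR17_017, 1 in each GS population, held at least 27.0 TPM of 4 Y-linked transcripts and at most 0.08 TPM of Xist, and the other 26 libraries held at most 0.17 and at least 9.54 TPM. In TPM, kidney cDC2 replicate 3, of that code, had the lowest level of its group in 8 of the 9 genes, and kidney cDC1 replicate 4 in 7 of 9. In CPM, Cd80, Cd86, Cd274 and Btla were still lowest in both libraries, and Icosl and Cd200 in kidney cDC2 replicate 3 only. Cd83 and Pdcd1lg2 were lowest in neither. Cd40 was at 91.4 CPM in kidney cDC2 replicate 3, the highest of its group, and at 78.64 in kidney cDC1 replicate 4. In the same libraries the summed dendritic cell markers were 237 TPM against 491 to 728 in the other kidney cDC2 libraries, and 283 against 594 to 745 in the other kidney cDC1 libraries. How far sort code, sex-linked expression, marker content and the TPM scale contribute to these levels was not tested. CD11bhi YFP- replicate 1 had the lower level of its pair in 7 of 9 genes. The 2 CD11bhi YFP- libraries held 16113616 and 16427546 gene reads. They had 9735 and 10482 genes at 1 CPM or more, the lowest values of the 33 libraries. The part of this in their levels was not tested. RPM replicate 1, also SR17_017, held 198 TPM of Ccr7, the lymph node homing receptor of mature dendritic cells, against 15.1 and 19.1 TPM in the other RPM libraries, and its 58.4 TPM of dendritic cell markers stood against 17.1 and 18.2.

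**Figure D1:**
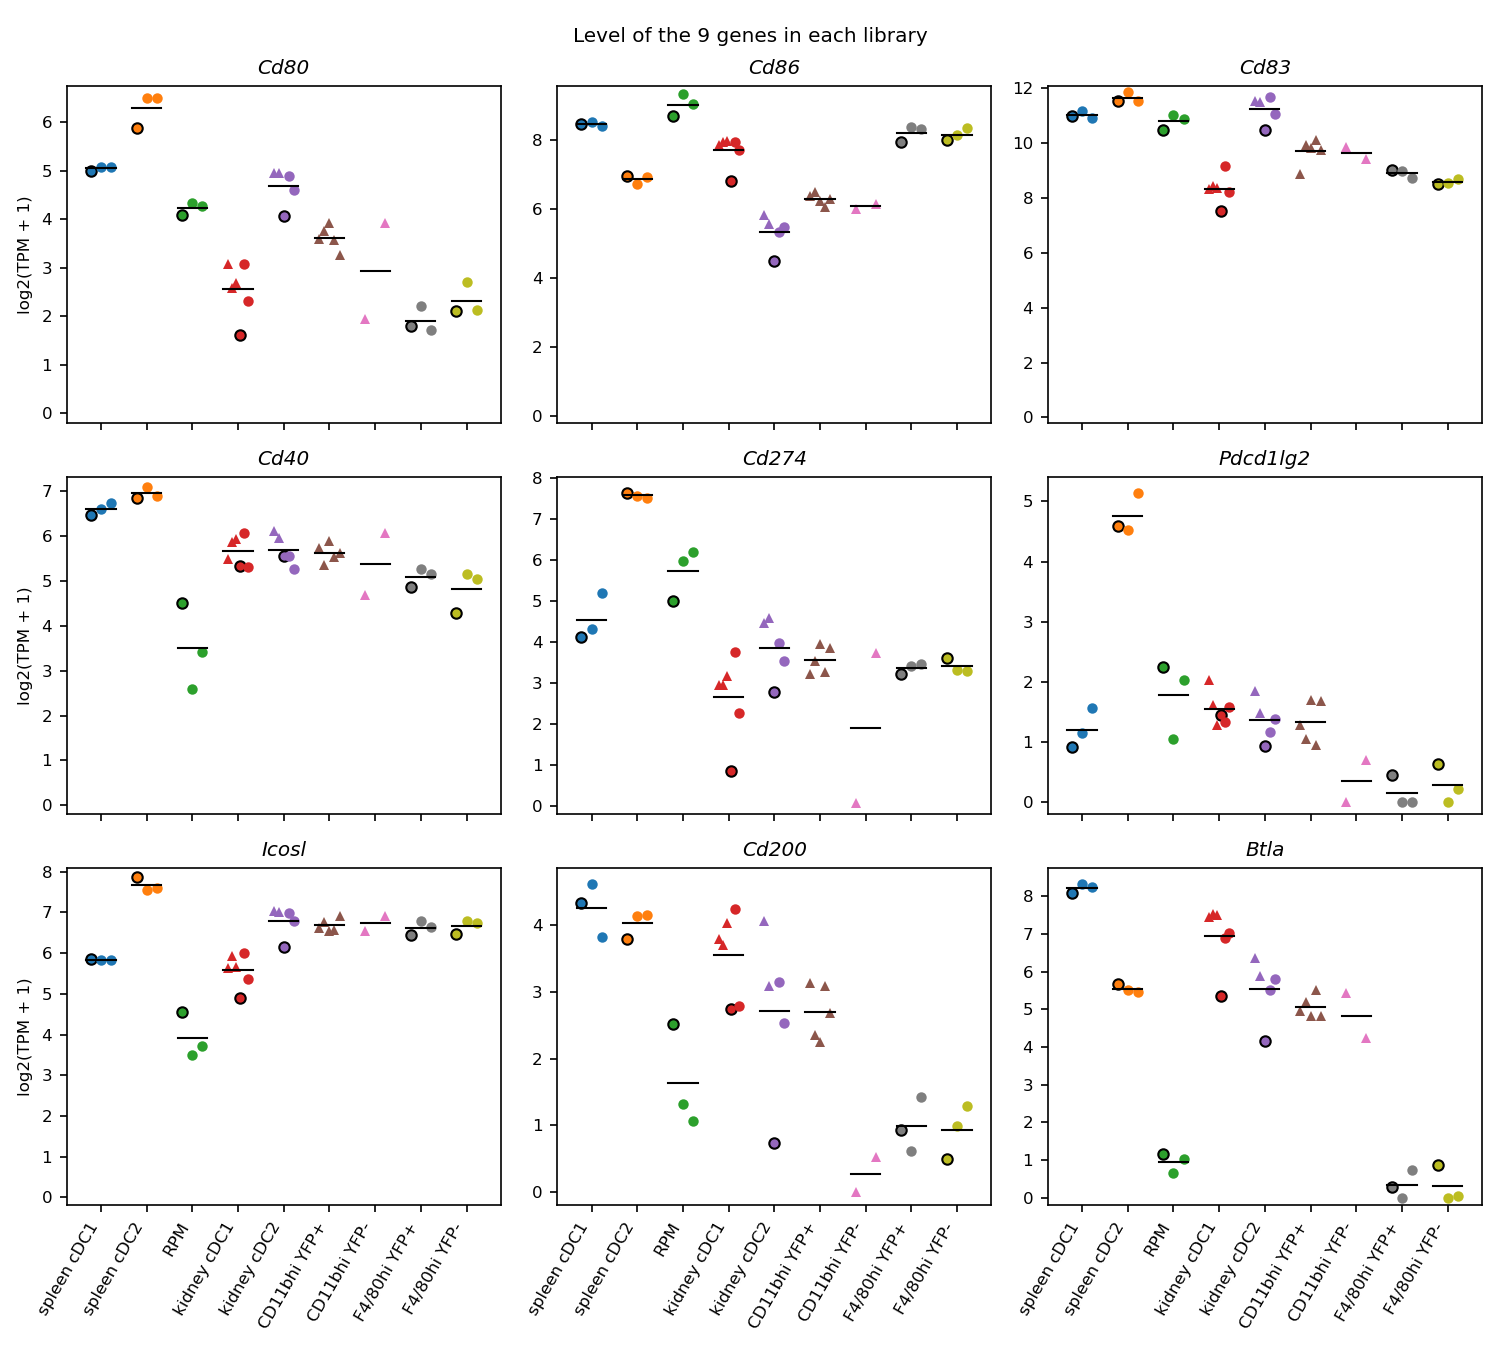
Level of each of the 9 genes in each of the 33 libraries, as log2(TPM + 1), by population. Circles are GS and triangles BS libraries, a black outline marks sort code SR17_017, and the bar is the mean of the population. Pdcd1lg2 is high in the 3 spleen cDC2 libraries (22.03 to 34.4 TPM) and at most 3.77 TPM in the others, and Btla is at most 1.23 TPM in RPM and F4/80hi cells.

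Cd83 held the largest share of the 9 genes' transcripts in every population, and what made up the rest differed. Cd83 was 89.1% of the summed TPM of the 9 genes in kidney cDC2 (87.9% to 91.4% over 5 libraries) and 79.9% in spleen cDC2, but 41.4% in kidney cDC1 (36.3% to 51.9% over 6). The sum of the 9 genes had a mean of 4003 TPM in spleen cDC2 and 2833 in kidney cDC2 against 817 in kidney cDC1 and 808 in F4/80hi YFP- cells. After Cd83, the leading gene was Cd86 in RPM, spleen cDC1, kidney cDC1 and both F4/80hi populations, and Icosl in spleen cDC2, kidney cDC2 and both CD11bhi populations. Without Cd83, the mean sum ran from 263 TPM in CD11bhi YFP- cells to 877 in spleen cDC1.

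**Figure D2:**
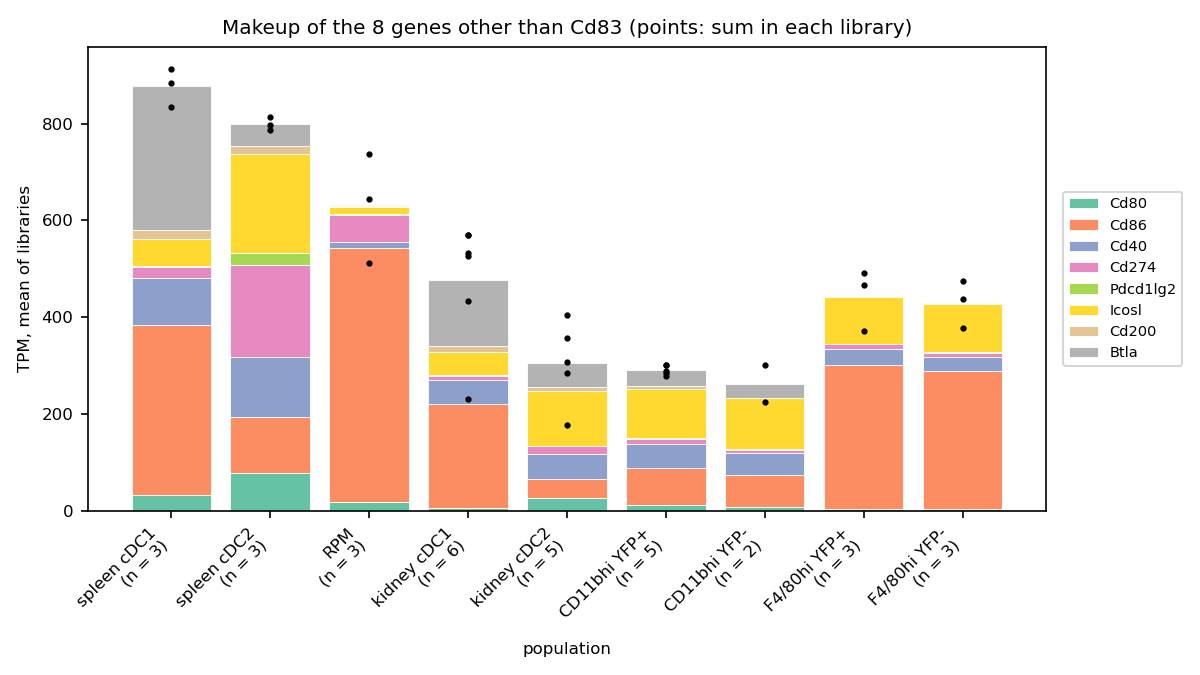
Mean TPM of the 8 genes other than Cd83, stacked, in 9 populations, with the sum in each library as a point. Btla makes up much of the sum in spleen and kidney cDC1, Cd274 is a visible part in spleen cDC2 and RPM, and Cd86 leads in RPM and F4/80hi cells.

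Cd80 was higher in cDC2 than in cDC1 within each organ. Across organs, every spleen cDC1 library lay above every kidney cDC2 library in TPM, while in CPM their ranges overlapped. Spleen cDC2 libraries held 57.9, 88.9 and 89.3 TPM and spleen cDC1 30.8, 32.8 and 32.5. Kidney cDC2 held 29.7, 29.8, 15.6, 28.7 and 23.3 TPM, and kidney cDC1 2.04 at the lowest, 5.21 at the median and 7.48 at the highest of 6 libraries. Within each organ the cDC2 values lay above all cDC1 values. Cd80 was lower in kidney cDC1 than in kidney cDC2 (log2 fold -2.45, SE 0.28, adjusted p = 4.62e-08) and lower in spleen cDC1 than in spleen cDC2 (log2 fold -1.06, SE 0.36, adjusted p = 0.0364). The spleen difference missed the threshold without SR17_017 (adjusted p = 0.0722) and when any of the 3 spleen cDC1 libraries, or spleen cDC2 replicate 2 or 3, was left out. RPM stood at 16.1, 19.1 and 18.2 TPM, CD11bhi YFP+ cells at 11.0, 12.4, 14.0, 10.8 and 8.52 and CD11bhi YFP- cells at 2.83 and 14.1. F4/80hi cells had the least, with 3.33, 5.51 and 3.34 TPM in YFP- and 2.45, 3.65 and 2.26 in YFP+ libraries, and their range overlapped that of kidney cDC1.

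Cd86 ran the other way, with high levels in macrophages and cDC1. RPM libraries held 412, 638 and 526 TPM, spleen cDC1 352, 366 and 339.9 and spleen cDC2 124, 104 and 119.6. Kidney cDC1 held 112 at the lowest, 238 at the median and 248 at the highest of 6 libraries, while kidney cDC2 had 55.8, 46.5, 21.5, 38.9 and 43.1 TPM, the lowest mean of the 9 populations. No kidney cDC2 library reached the lowest kidney cDC1 library. Cd86 was higher in cDC1 than in cDC2 in kidney (log2 fold 2.28, SE 0.11, adjusted p = 1.6e-15) and in spleen (log2 fold 1.87, SE 0.15, adjusted p = 5.86e-11), and the difference between the organs was 0.40 (95% interval 0.04 to 0.77) on the log2 scale, adjusted p = 0.234. F4/80hi cells held 254, 279 and 322 TPM in YFP- and 245, 330.4 and 319 in YFP+ libraries. CD11bhi cells were at 82.0, 89.7, 73.6, 65.1 and 77.3 in YFP+ and 62.6 and 70.2 in YFP- libraries, below every F4/80hi library.

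The ratio of Cd86 to Cd80, both of which bind CD28 and CTLA-4, differed widely between populations. It was 1.17 to 2.14 in spleen cDC2 and 1.35 to 1.88 in kidney cDC2, the lowest of the 9 populations. In cDC1 it was 10.4 to 11.4 in spleen and 31.0 to 54.8 in kidney, and the libraries of the organs did not overlap. The ratio was 25.6 to 33.4 in RPM, 50.6 to 141 in F4/80hi cells and 5.25 to 9.07 in CD11bhi YFP+ cells, with 4.98 and 22.1 in the CD11bhi YFP- libraries. As ratios within a library, they do not depend on how libraries are scaled to each other.

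**Figure D3:**
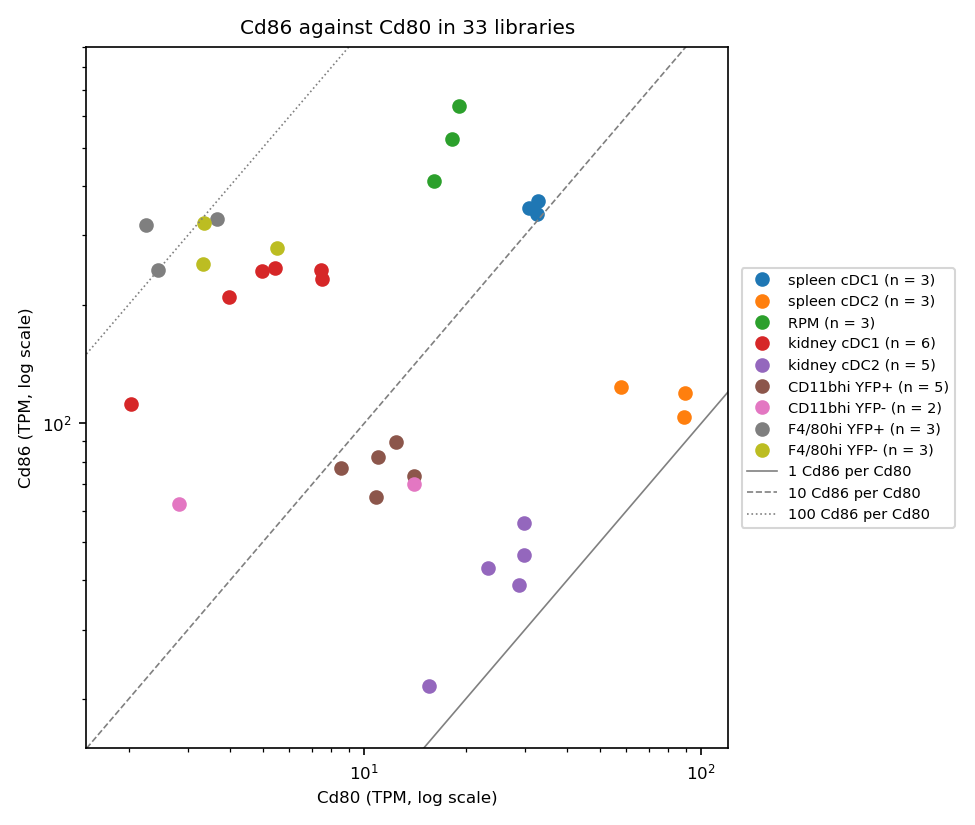
Cd86 against Cd80 in 33 libraries, both in TPM on log axes, coloured by population, with lines at 1, 10 and 100 Cd86 transcripts per Cd80 transcript. The cDC2 libraries of both organs lie near the line of 1, spleen cDC1 near 10, and F4/80hi libraries around 100.

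Icosl was high in cDC2 and in the CD64+ kidney cells and low in RPM. Spleen cDC2 libraries held 232, 188 and 192 TPM and spleen cDC1 56.6, 55.8 and 56.0. RPM held 22.3, 10.3 and 12.1, the lowest of the 9 populations, without overlap with any other. Kidney cDC2 stood at 131, 129, 70.1, 125 and 109 TPM and kidney cDC1 at 28.9 at the lowest, 49.2 at the median and 63.7 at the highest of 6 libraries. The CD11bhi and F4/80hi populations had means of 98.4 to 106 TPM and overlapped. Icosl was lower in cDC1 than in cDC2 in kidney (log2 fold -1.32, SE 0.17, adjusted p = 4.07e-07) and in spleen (log2 fold -1.56, SE 0.23, adjusted p = 7.03e-06). F4/80hi YFP- cells had more than RPM (log2 fold 2.67, SE 0.24, adjusted p = 1.05e-09), whereas their Cd86 differed from RPM by -0.91 (95% interval -1.21 to -0.62), under the fold needed for a call.

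Cd83, the mature dendritic cell marker, was the most abundant gene of the set. Spleen cDC2 libraries held 2963, 3701 and 2948 TPM, spleen cDC1 2022, 2265 and 1899 and RPM 1426, 2059 and 1875. Kidney cDC2 held 2951, 2863, 1426, 3265 and 2127 TPM, but kidney cDC1 held 182 at the lowest, 322 at the median and 575 at the highest of 6 libraries. The highest kidney cDC1 library was below the lowest kidney cDC2 library and below every spleen library. Cd83 was lower in kidney cDC1 than in kidney cDC2 (log2 fold -2.97, SE 0.19, adjusted p = 2.45e-13) and than in spleen cDC1 (log2 fold -2.29, SE 0.22, adjusted p = 1.33e-08). Between spleen cDC1 and cDC2 the log2 fold was -0.36 (95% interval -0.85 to 0.13), not called. CD11bhi YFP+ cells held 469, 960.2, 909, 1088 and 865 TPM and CD11bhi YFP- cells 925 and 674. F4/80hi cells held 512, 499 and 423 in YFP+ and 359, 367 and 410.2 in YFP- libraries, between kidney cDC1 and CD11bhi cells in mean level.

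Cd40, the receptor for CD40L, was at overlapping levels in kidney cDC1 and cDC2. Kidney cDC2 held 68.2, 61.2, 45.8, 46.2 and 37.5 TPM and kidney cDC1 39.0 at the lowest, 50.9 at the median and 66.0 at the highest of 6 libraries. Their log2 difference was -0.13 (95% interval -0.70 to 0.43). CD11bhi YFP+ cells were at 52.3, 40.1, 58.5, 45.4 and 48.2 TPM, F4/80hi YFP+ at 28.1, 37.8 and 35.0 and F4/80hi YFP- at 18.4, 34.5 and 32.1. Spleen cDC2 held 115, 136 and 119 TPM and spleen cDC1 87.3, 96.0 and 106, above every kidney library. The fitted folds of kidney against spleen were not called. They were -0.69 (95% interval -1.39 to 0.02) in cDC1 and -0.63 (95% interval -1.35 to 0.09) in cDC2. RPM held 21.8, 5.06 and 9.72 TPM, and its highest value was in replicate 1, the library with the high Ccr7. Cd40 was lower in RPM than in spleen cDC2 (log2 fold -2.85, SE 0.40, adjusted p = 1.39e-06), and without RPM replicate 1 that fold was -3.75 (adjusted p = 1.48e-08). F4/80hi YFP- cells were called above RPM (log2 fold 1.10, SE 0.39, adjusted p = 0.0333), but the TPM ranges overlapped. Without RPM replicate 1 that fold was 1.98 (adjusted p = 0.000172), and it was not called without RPM replicate 2 (0.71, adjusted p = 0.184) or replicate 3 (0.91, adjusted p = 0.128), nor without F4/80hi YFP- replicate 2 or 3.

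Cd274 and Pdcd1lg2, the PD-1 ligands, were both highest in spleen cDC2. For Cd274, spleen cDC2 libraries held 198, 188 and 182 TPM, RPM 31.1, 61.5 and 72.2 and spleen cDC1 16.4, 18.8 and 35.5. For Pdcd1lg2, spleen cDC2 libraries held 23.2, 22.03 and 34.4 TPM, RPM 3.77, 1.08 and 3.08 and spleen cDC1 0.88, 1.21 and 1.96. In both genes every spleen cDC2 library was above every other library of the 33. Kidney cDC2 held 20.8, 22.8, 5.82, 14.6 and 10.6 TPM of Cd274 and 2.59, 1.79, 0.91, 1.24 and 1.62 of Pdcd1lg2. Against spleen cDC2 both were lower (Cd274 log2 fold -3.34, SE 0.65, adjusted p = 0.000274, and Pdcd1lg2 log2 fold -3.59, SE 0.81, adjusted p = 0.00125). In kidney cDC1 Cd274 stood at 0.79 at the lowest, 6.67 at the median and 12.4 at the highest of 6 libraries, and Pdcd1lg2 at 1.43 at the lowest, 1.87 at the median and 3.09 at the highest of 6 libraries. Cd274 was called lower in kidney cDC1 than in kidney cDC2 (log2 fold -1.32, SE 0.50, adjusted p = 0.05), although the libraries overlapped. Within GS libraries the adjusted p of that fold was 0.162, within BS libraries 0.306 and without SR17_017 0.104, with folds of -1.02, -1.69 and -1.25. In all, 16 of 24 alternatives lost the call, among them DESeq2, the fit with no prefix term and leaving out any 1 of 9 of the 11 libraries. Without kidney cDC1 replicate 5 the fold was -1.92 (adjusted p = 0.00591).

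Pdcd1lg2 was close to absent from F4/80hi cells and low elsewhere in the kidney. F4/80hi YFP+ libraries counted 14, 0 and 0 reads of it, F4/80hi YFP- libraries 14, 0 and 5, and CD11bhi YFP- libraries 0 and 27. CD11bhi YFP+ libraries counted 64, 35, 89, 20 and 108 reads, or 1.44, 1.07, 2.26, 0.93 and 2.22 TPM. The CD11bhi YFP+ libraries were above all F4/80hi YFP+ libraries (log2 fold 3.34, SE 1.14, adjusted p = 0.0418), but 7 of 19 alternatives lost the call, among them leaving out CD11bhi YFP+ replicate 1, 3 or 5 or F4/80hi YFP+ replicate 2 or 3. Without F4/80hi YFP+ replicate 1 the fold was 8.71 (adjusted p = 0.00189). Prefix and population cannot be told apart in that difference. Cd274 levels overlapped between these cells, with 8.31, 10.7, 14.4, 8.66 and 13.4 TPM in CD11bhi YFP+, 8.37, 9.67 and 9.94 in F4/80hi YFP+ and 11.3, 8.95 and 8.80 in F4/80hi YFP- libraries. The CD11bhi YFP- libraries held 0.05 and 12.2 TPM, or 2 and 544 reads, so the pair of libraries disagreed on whether Cd274 is present.

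Btla had its highest mean levels in cDC1 and was also present in cDC2 and CD11bhi cells. It had the largest folds of the 9 between the CD64+ populations of kidney. Spleen cDC1 libraries held 271, 319 and 299.96 TPM and spleen cDC2 50.4, 44.7 and 42.7. Kidney cDC1 held 39.9 at the lowest, 150.3 at the median and 185 at the highest of 6 libraries, and kidney cDC2 81.3, 58.4, 16.9, 44.4 and 54.6 TPM. cDC1 had the higher level in both organs (kidney log2 fold 1.26, SE 0.35, adjusted p = 0.00649, and spleen log2 fold 2.97, SE 0.49, adjusted p = 2.87e-05), without overlap in spleen and with overlap in kidney, where the SR17_017 library was the low one of cDC1. Without SR17_017 the kidney fold was 1.26 (adjusted p = 0.000447), within GS libraries 1.23 (adjusted p = 0.141) and within BS libraries 1.29 (adjusted p = 0.00486). The BS libraries of kidney cDC1 and cDC2 share no sort code, so population and sort code cannot be told apart there. CD11bhi YFP+ cells held 29.8, 35.6, 27.1, 44.8 and 27.2 TPM and CD11bhi YFP- cells 41.9 and 18.0. F4/80hi cells held 0.21, 0 and 0.68 TPM in YFP+ and 0.84, 0 and 0.03 in YFP- libraries. Those F4/80hi values rest on 7, 0 and 19 reads in YFP+ and 21, 0 and 1 in YFP- libraries, and RPM held 1.23, 0.59 and 1.04 TPM. Every CD11bhi and dendritic cell library was above every F4/80hi and RPM library.

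Cd200, whose product dampens myeloid cells through CD200R1, was highest in dendritic cells. Spleen cDC1 libraries held 19.04, 23.6 and 13.2 TPM, spleen cDC2 12.8, 16.6 and 16.8 and RPM 4.71, 1.5 and 1.10. Kidney cDC1 held 5.68 at the lowest, 12.4 at the median and 17.9 at the highest of 6 libraries, and kidney cDC2 15.7, 7.47, 0.67, 7.90 and 4.79 TPM. The dendritic cell populations of kidney overlapped, with a log2 difference of 0.71 (95% interval -0.26 to 1.67). CD11bhi YFP+ cells held 7.76, 4.10, 3.77, 7.48 and 5.39 TPM and CD11bhi YFP- cells 0 and 0.44, without overlap. F4/80hi cells held 0.90, 0.53 and 1.67 TPM in YFP+ and 0.41, 0.98 and 1.44 in YFP- libraries, which overlapped.

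Of the 9 genes, 1 was called between YFP+ and YFP- cells of the same gate. Between YFP+ and YFP- F4/80hi cells, where 0.00701% of the genes tested were called higher and 0% lower, 0 of the 9 genes were called, by edgeR's quasi-likelihood test and by DESeq2. The lowest unadjusted p of the 9 was 0.12, for Cd83, with a log2 difference of 0.38 (95% interval -0.11 to 0.88), and the median log2 fold of the 9 was 0.05 against 0.00 over all genes tested. Between YFP+ and YFP- CD11bhi cells, where 4.34% of the genes tested were called higher and 1% lower, 1 gene was called. It was Cd200, higher in YFP+ cells (log2 fold 4.49, SE 0.91, adjusted p = 0.00253), with 233, 91, 101, 107 and 177 reads in YFP+ libraries and 0 and 13 in YFP- libraries. Within a fit of these groups alone the adjusted p was 0.23, within BS libraries 0.0444 and without CD11bhi YFP- replicate 1, the library at 0, it was 0.0378 with a log2 fold of 3.49. Without CD11bhi YFP- replicate 2 the fold was 10.16 (adjusted p = 0.000332), so the size of the fold rests on which YFP- library is kept. In that fit, which leaves 1 YFP- library, the log2 folds of Cd80, Cd274 and Pdcd1lg2 were 1.78, 7.76 and 8.90. With all libraries they were 0.26, 0.71 and 2.19. The summed level of T and NK cell markers was 45 to 77.5 TPM in YFP+ and 23.7 and 34.2 in YFP- libraries, that of B cell markers 32.8 to 72.5 and 72.0 and 39.3, and that of endothelial markers 17.7 to 27.3 and 37.3 and 21.1, whose part in the Cd200 difference was not tested. The median of the 9 genes was 0.21, against 0.09 over all genes. The YFP difference was larger in CD11bhi than in F4/80hi cells for 1 gene, again Cd200 (log2 fold 4.36, SE 1.11, adjusted p = 0.0356), in a comparison where 1.72% of the genes tested were called higher and 0.119% lower. That call was lost in 10 of 24 alternatives, among them the fit with sort code as a block (4.64, adjusted p = 0.076) and the fits without CD11bhi YFP+ replicate 1, CD11bhi YFP- replicate 1 (3.36, adjusted p = 0.132), F4/80hi YFP+ replicate 1 or 2 and F4/80hi YFP- replicate 2 or 3. Without CD11bhi YFP- replicate 2 it was 10.03 (adjusted p = 0.00121).

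CD11bhi and F4/80hi cells, the CD64+ cells of the kidney, differed in Btla and Cd86 whether YFP+ or YFP-. CD11bhi YFP+ cells had more Btla (log2 fold 6.28, SE 0.70, adjusted p = 2.43e-07) and Cd80 (log2 fold 1.91, SE 0.45, adjusted p = 0.00342) than F4/80hi YFP+ cells and less Cd86 (log2 fold -2.09, SE 0.16, adjusted p = 5.26e-10). With Pdcd1lg2, 3 of the 9 genes were higher and 1 lower, where 7.71% of the genes tested were called higher and 4.36% lower. Their median log2 fold was 0.99 against 0.06 over all genes. Among YFP- cells, Btla (log2 fold 6.15, SE 0.76, adjusted p = 1.15e-06) and Cd83 (log2 fold 1.28, SE 0.32, adjusted p = 0.00433) were higher in CD11bhi cells and Cd86 lower (log2 fold -2.20, SE 0.20, adjusted p = 8.56e-09), 2 and 1 of the 9, where 9.81% of the genes tested were called higher and 10.1% lower and the medians were 0.51 and -0.06. The Cd83 call was lost in limma fits on log2 TPM. Among YFP+ cells the Cd83 fold was 0.99 (SE 0.28, adjusted p = 0.0148), just under the fold needed for a call, and 3 of 19 alternatives called it. The size of the Btla folds, which rest on few reads in F4/80hi cells, moved with single libraries, from 5.63 to 7.55 in YFP+ cells without F4/80hi replicate 2 or 3 and from 5.47 to 9.97 in YFP- cells without F4/80hi replicate 2 or 1, and it stayed called in each. Without CD11bhi YFP- replicate 2, 5 rather than 3 of the genes were called. All CD11bhi libraries carry the BS prefix and all F4/80hi libraries GS, and the fit takes the size of the prefix effect from kidney cDC1 and cDC2.

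Against kidney cDC2, F4/80hi YFP+ cells had the larger set of differences and CD11bhi YFP+ cells few. F4/80hi YFP+ cells had more Cd86 (log2 fold 2.72, SE 0.14, adjusted p = 9.22e-15) and less Cd80 (log2 fold -3.36, SE 0.39, adjusted p = 1.11e-07), Cd83 (log2 fold -2.63, SE 0.25, adjusted p = 2.05e-09) and Btla (log2 fold -7.40, SE 0.66, adjusted p = 6e-10). Cd200 and Pdcd1lg2 were lower too (log2 folds -2.62 and -3.59), so that 1 of the 9 was higher and 5 lower, where 8.87% of the genes tested were called higher and 10.5% lower. The median of the 9 was -2.62, against 0.02 over all genes. CD11bhi YFP+ cells had less Cd80 (log2 fold -1.46, SE 0.32, adjusted p = 0.00582) and Cd83 (log2 fold -1.64, SE 0.21, adjusted p = 5.6e-06) than kidney cDC2, 0 higher and 2 lower of 9, where 1.47% of the genes tested were called higher and 1.05% lower and the medians were -0.74 and 0.04. The Pdcd1lg2 fold was -8.95 without F4/80hi YFP+ replicate 1 and -2.94 without replicate 2, and the Btla fold -6.75 without replicate 2 and -8.67 without replicate 3, all called. In BS libraries alone the Cd80 fold was -1.45 with an adjusted p of 0.136. For CD11bhi YFP+ cells against kidney cDC2, Btla was not called (log2 fold -1.12, SE 0.40, adjusted p = 0.144). It was called in BS libraries alone and without SR17_017. Cd86 was higher in CD11bhi YFP+ cells without overlap in TPM (log2 fold 0.63, SE 0.13, adjusted p = 0.00251), under the fold needed for a call. These comparisons share the kidney cDC2 libraries.

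**Figure D4:**
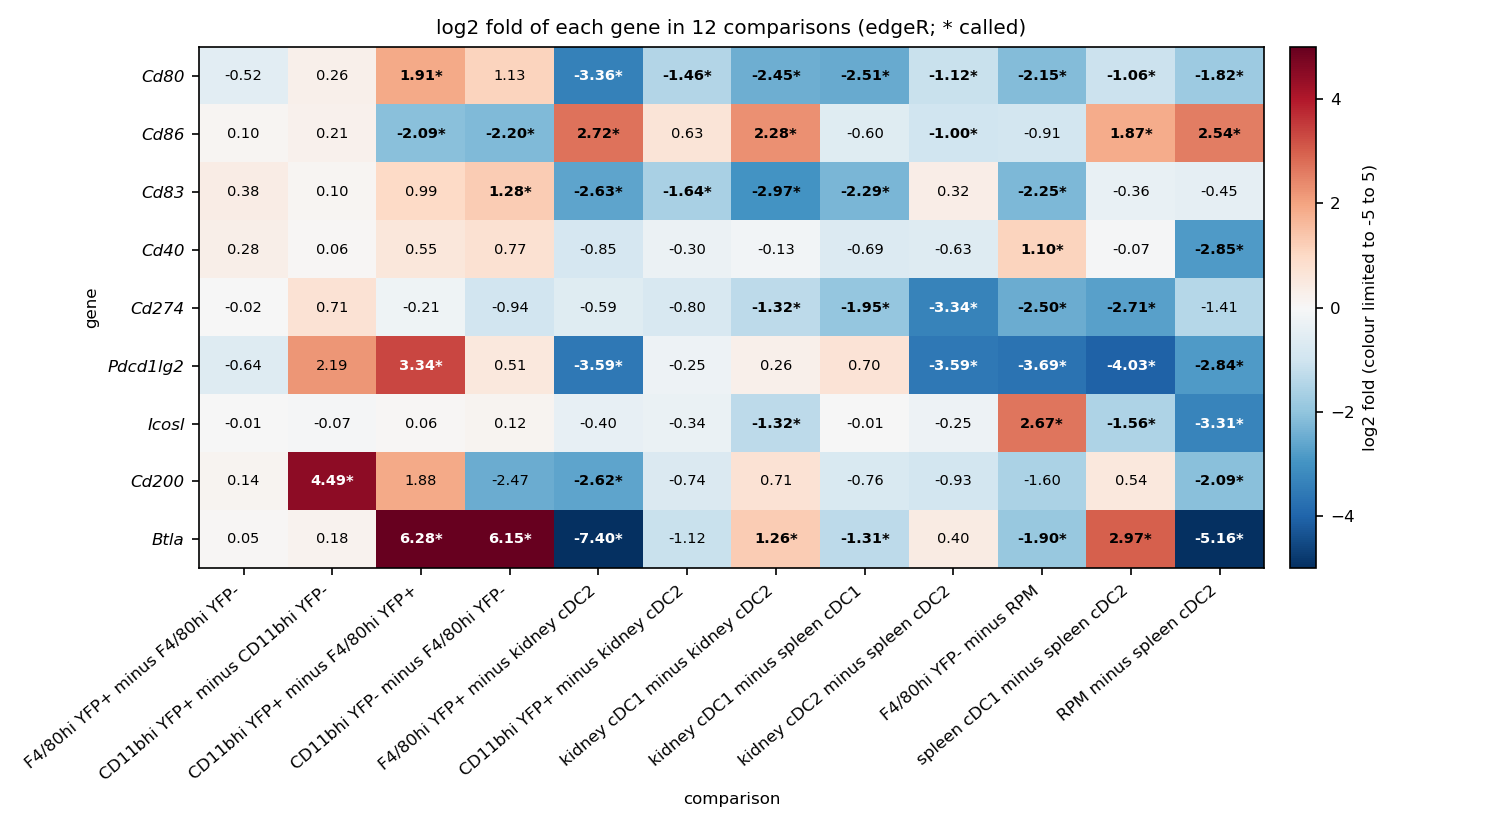
Fitted log2 fold of each of the 9 genes in 12 comparisons, first population minus second, with an asterisk where the gene was called. Values run from -7.40 for Btla in F4/80hi YFP+ cells against kidney cDC2 to 6.28 for Btla in CD11bhi against F4/80hi YFP+ cells, and colour stops at -5 and 5.

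In kidney, cDC1 differed from cDC2 in 6 of the 9 genes. Cd86 and Btla were higher and Cd80, Cd83, Icosl and Cd274 lower, 2 and 4 of 9, where 5.48% of the genes tested were called higher and 10.2% lower. The median log2 fold was -0.13 against -0.02 over all genes. Cd80 had folds of -2.42 within BS and -2.47 within GS libraries, Cd86 2.15 and 2.37, Cd83 -3.21 and -2.77 and Icosl -1.40 and -1.27. Within BS the 2 populations share no sort code, so population and sort code cannot be told apart in those folds. In spleen the same comparison gave 2 higher and 4 lower, where 6.32% of the genes tested were called higher and 8.3% lower, and medians of -0.36 and 0.00. Cd86 and Btla were again higher in cDC1, and Cd80, Icosl, Cd274 (log2 fold -2.71, SE 0.71, adjusted p = 0.00562) and Pdcd1lg2 (log2 fold -4.03, SE 0.94, adjusted p = 0.00184) lower. Without SR17_017 the Cd274 fold in spleen was -2.52 (adjusted p = 0.0501).

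The cDC1 to cDC2 difference itself differed between the organs for Cd83 and Pdcd1lg2. For Cd83 it was -2.97 in kidney and -0.36 in spleen (interaction log2 fold -2.60, SE 0.30, adjusted p = 6.8e-07). For Pdcd1lg2 it was 0.26 in kidney and -4.03 in spleen (interaction log2 fold 4.28, SE 1.10, adjusted p = 0.0134), a value not called without spleen cDC1 replicate 1 or replicate 2. With 1 gene higher and 1 lower of 9, 1.67% of the genes tested were called higher and 3.57% lower, and the medians were 0.17 and 0.00. For Cd80 and Btla the interactions were -1.39 (95% interval -2.32 to -0.47) and -1.71 (95% interval -2.87 to -0.54), with adjusted p-values of 0.0664 and 0.0762. Both were called under some alternatives, Cd80 with sort code as a block (-1.56, adjusted p = 0.0298) and Btla without SR17_017 (-1.77, adjusted p = 0.016).

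**Figure D5:**
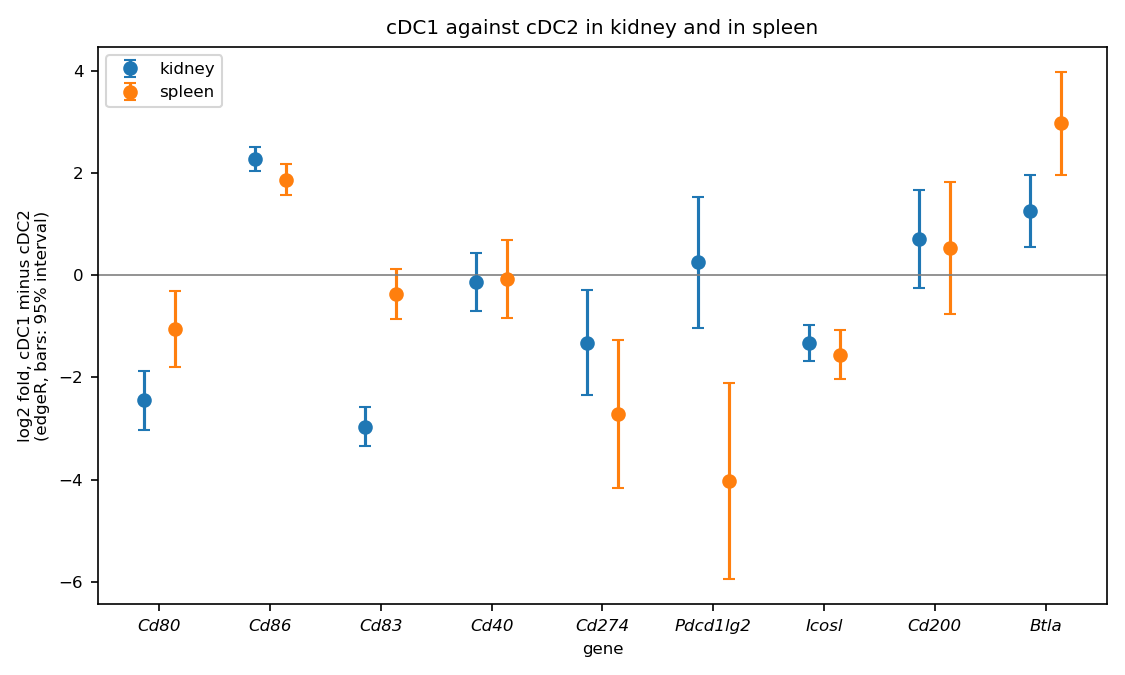
Log2 fold of cDC1 against cDC2 for 9 genes in kidney and in spleen, with 95% intervals from the edgeR fit. Cd83 is at -2.97 in kidney and -0.36 in spleen, Pdcd1lg2 at 0.26 and -4.03, and the intervals of Cd40 and Cd200 include 0 in both organs.

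Each population was also set against its spleen counterpart. Kidney cDC1 had less Cd80 (log2 fold -2.51, SE 0.34, adjusted p = 4.43e-06), Cd83, Cd274 (log2 fold -1.95, SE 0.62, adjusted p = 0.0249) and Btla (log2 fold -1.31, SE 0.42, adjusted p = 0.0272) than spleen cDC1, 0 higher and 4 lower of 9, where 6.66% of the genes tested were called higher and 4.45% lower, and the medians were -0.76 and 0.12. The Cd274 call was lost in 3 of 21 alternatives, without SR17_017 (-1.84, adjusted p = 0.127), kidney cDC1 replicate 4 or spleen cDC1 replicate 3, and the fold was -2.80 without kidney cDC1 replicate 5. The Btla call was lost in 7 of 21, with DESeq2, within GS libraries, with no prefix term and without kidney cDC1 replicate 4 or spleen cDC1 replicate 1, 2 or 3. Kidney cDC2 had less Cd80 (log2 fold -1.12, SE 0.34, adjusted p = 0.0121), Cd86 (log2 fold -1.0, SE 0.13, adjusted p = 1.46e-06), Cd274 and Pdcd1lg2 than spleen cDC2, again 0 higher and 4 lower, where 11.9% of the genes tested were called higher and 6.9% lower, and the medians were -0.93 and 0.13. The Cd86 fold stood at the threshold, was -0.93 without SR17_017 and lost its call in 5 of 20 alternatives. Markers of other cells moved with the organ. Of 9 kidney tubule markers tested, 6 were higher in kidney than in spleen cDC2, 4 in kidney than in spleen cDC1 and 0 were lower, with median log2 folds of 5.95 and 4.67. Their sum was 14.2 to 420 TPM in kidney cDC2 and 13.2 to 383 in kidney cDC1 against at most 8.97 in spleen dendritic cells, and the 383 was in kidney cDC1 replicate 4. Of 10 T and NK cell markers tested, 5 were higher and 1 lower in kidney cDC2 (17.4 to 88.7 TPM against 30.5 to 44.5) and 3 and 0 in kidney cDC1 (5.65 to 30.2 against 7.24 to 9.0). Their part in these differences was not tested. TPM and count folds were on different scales here: over 7080 genes with a mean of at least 10 TPM, the median log2 difference in TPM was 0.65 below that in fitted counts for kidney against spleen cDC2. It was 0.28 below for cDC1, 0.41 below for RPM against spleen cDC2 and 0.27 below for spleen cDC1 against cDC2. On the TPM scale Cd40, Icosl and Cd200 were also called lower in kidney cDC2 than in spleen cDC2, and Cd40 and Cd86 lower in kidney cDC1 than in spleen cDC1. For Cd83 in cDC2 the mean TPM was lower in kidney while the fitted fold was 0.32 (95% interval -0.15 to 0.79), so no direction is given.

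Macrophages of kidney and spleen differed in 7 of the 9 genes. F4/80hi YFP- cells had more Icosl and Cd40 than RPM and less Cd80 (log2 fold -2.15, SE 0.38, adjusted p = 7.97e-05), Cd83 (log2 fold -2.25, SE 0.25, adjusted p = 4.26e-08), Cd274 (log2 fold -2.50, SE 0.71, adjusted p = 0.00879), Pdcd1lg2 (log2 fold -3.69, SE 0.99, adjusted p = 0.0059) and Btla (log2 fold -1.90, SE 0.72, adjusted p = 0.0486). That is 2 higher and 5 lower of 9, where 11.1% of the genes tested were called higher and 9.02% lower, with medians of -1.90 and 0.03. The Btla call, between populations at or under 1.23 TPM, was lost in 10 of 18 alternatives and its fold was -5.71 without F4/80hi YFP- replicate 1. The Pdcd1lg2 fold was -5.25 without F4/80hi YFP- replicate 1 and -3.04 without replicate 2. Of 9 kidney tubule markers, 5 were higher and 0 lower in F4/80hi YFP- cells, at 331 to 1024 TPM in sum against 4.16 to 8.26 in RPM, and their part in these differences was not tested. In spleen, RPM had more Cd86 than cDC2 (log2 fold 2.54, SE 0.15, adjusted p = 8.46e-14) and less Cd80, Cd40, Pdcd1lg2, Icosl (log2 fold -3.31, SE 0.25, adjusted p = 1.4e-11), Cd200 and Btla (log2 fold -5.16, SE 0.57, adjusted p = 2.23e-08), 1 and 6 of 9, where 15.5% of the genes tested were called higher and 14.5% lower, and the medians were -2.09 and 0.00. The Pdcd1lg2 and Cd200 calls were lost without RPM replicate 2, and that of Cd200 also without RPM replicate 3. Without RPM replicate 1 the Icosl fold was -3.91 and the Cd200 fold -3.20. F4/80hi YFP- cells minus kidney cDC2, set against RPM minus spleen cDC2, differed for Icosl (log2 fold 2.92, SE 0.32, adjusted p = 5.11e-08), Cd83 (log2 fold -2.57, SE 0.34, adjusted p = 1.32e-06), Cd40 (log2 fold 1.72, SE 0.52, adjusted p = 0.0135) and Btla (log2 fold -2.30, SE 0.84, adjusted p = 0.041). These are 2 higher and 2 lower of 9, where 10.2% of the genes tested were called higher and 14% lower, and the medians were -0.11 and -0.04. Without RPM replicate 1 the Cd40 interaction was 2.69 (adjusted p = 7.46e-05) and that of Icosl 3.58, and without RPM replicate 2 that of Cd40 was 1.34 (adjusted p = 0.0421). The Btla interaction was -6.03 without F4/80hi YFP- replicate 1 and lost its call in 16 of 26 alternatives, with an adjusted p of 0.0503 when sort code was a block.

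Other genes of these pathways were counted from named lists. The CD40 and NF-kB list holds 18 genes, among them TRAF adaptors, NF-kB subunits and their inhibitors. It had 0 higher and 9 lower in kidney cDC1 against cDC2 (median log2 fold -1.0), where 5.48% of all genes tested were higher and 10.2% lower. In spleen cDC1 against cDC2 it had 0 and 10 (median -1.16), beside 6.32% and 8.3% of all genes. Tnfaip3, which encodes the inhibitor A20, was at 14.1 ± 8.07 TPM in kidney cDC1 and 169 TPM in kidney cDC2 (log2 fold -3.72, SE 0.35, adjusted p = 1.45e-09). Nfkbia, which encodes the inhibitor IkB-alpha, was next at -2.90 (log2 fold, SE 0.16, adjusted p = 1.61e-14), and Rel, an NF-kB subunit, was at -2.11 (SE 0.21, adjusted p = 3.95e-09). Between organs, the list had 0 higher and 10 lower in kidney against spleen cDC1 (median -1.04), beside 6.66% and 4.45% of all genes, and 2 and 8 in cDC2 (median -0.94), beside 11.9% and 6.9%. Relb, a subunit of the alternative NF-kB pathway, was lower in kidney cDC2 than in spleen cDC2 (log2 fold -2.61, SE 0.27, adjusted p = 2.1e-08), whereas Nfkbia was higher (log2 fold 2.52, SE 0.21, adjusted p = 4.47e-10). In CD11bhi against F4/80hi YFP+ cells 4 were higher and 0 lower (median 0.45), beside 7.71% and 4.36% of all genes, led by Nfkbia (log2 fold 2.36, SE 0.25, adjusted p = 1.07e-07).

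Of 13 TNF family ligands, which act beside the B7 proteins on T cells, 0 were higher and 4 lower in kidney cDC1 against cDC2 (median -0.20), beside the same 5.48% and 10.2% of all genes, which also stand for the other lists in that comparison. Tnfsf9, the ligand of 4-1BB, stood at 1544 ± 453 TPM in kidney cDC2, from 1068 to 2206 over 5 libraries, and at 10.1 to 23.4 in kidney cDC1 (log2 fold -6.52, SE 0.35, adjusted p = 7.31e-15). Its level was 56.9 to 103 TPM in spleen cDC2, below every kidney cDC2 library (log2 fold 5.04, SE 0.45, adjusted p = 1.09e-09), and 239 to 630 in CD11bhi YFP+ cells. Of 18 B7 relatives and similar ligands, 14 were tested, with 1 higher and 3 lower in kidney cDC1 against cDC2 (median -0.33), the higher count near the 5.48% of all genes. The gene that was higher, Cd24a, encodes CD24, on which cDC1 were sorted. Pvr and Ceacam1 were among the lower ones (log2 folds -2.44 and -2.17). Cd276, which encodes the B7 relative B7-H3, was at 14.9 ± 2.95 TPM in F4/80hi YFP+ cells and 0.04 in kidney cDC2 (log2 fold 7.64, SE 1.39, adjusted p = 0.000177).

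The receptors of the 9 proteins were mostly at low levels. Of 11 such genes, 0 were higher and 3 lower in kidney cDC1 against cDC2 (median -1.10), beside 5.48% and 10.2% of all genes. Cd200r1, the CD200 receptor, was at 48.5 ± 14.3 TPM in kidney cDC2 and 9.33 ± 3.54 in kidney cDC1 (log2 fold -2.51, SE 0.17, adjusted p = 1.6e-12), while the mean level of Cd200 was higher in kidney cDC1. Tnfrsf14, the BTLA partner, had means of 3.32 to 12.1 TPM over the 9 populations, with RPM the highest at 8.37 to 18.4 over 3 libraries. Ctla4 was at 12 ± 3.72 TPM in spleen cDC1 and at most 4.24 in any other library. Of 12 other checkpoint receptors, 0 were higher and 3 lower in kidney cDC1 against cDC2 (median -0.83), led by Sirpa, a receptor typical of cDC2 (log2 fold -8.21, SE 0.28, adjusted p = 5.76e-19).

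Genes tied to dendritic cell maturation were listed apart from the 9. Of 20, 4 were higher and 9 lower in kidney cDC2 against spleen cDC2 (median -1.46), beside 11.9% and 6.9% of all genes. In kidney against spleen cDC1 1 was higher and 4 lower (median -0.83), beside 6.66% and 4.45%, and the 1 that was higher is near that share. Ccr7 stood at 711 to 1113 TPM in spleen cDC2 and 47.2 to 184 in kidney cDC2, and at most 2.64 in F4/80hi cells. The members of the list did not move together. Ccl17, a chemokine, was higher in kidney cDC2 (log2 fold 9.58, SE 0.97, adjusted p = 1.05e-08), and Tbc1d4 lower (log2 fold -5.26, SE 0.35, adjusted p = 5.46e-12). How far a different share of mature cells enters the organ differences of Cd80 and the PD-1 ligands was not tested. Nor was it for Cd40, which was called lower in kidney dendritic cells on the TPM scale only.

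As a description, each gene was compared with 10058 others by Pearson correlation of log2(CPM + 1) over the 9 population means, which share libraries and depth. Nearest to Cd80 were Avpi1 (r = 0.974), Btg1 (0.969) and Nfkb2 (0.945), and nearest to Cd83 was Cd80 itself (0.932). Cd86 was closest to Man2b1 (0.985), Tapbp (0.977) and Slc9a9 (0.976), and Icosl to Git2 (0.983), Tagap (0.97) and Trp53bp1 (0.969). Cd40 lay nearest to Sh2b2 (0.982), Sp140 (0.98) and Zfp516 (0.974). Cd274 was closest to Tbc1d30 (0.965) and Pdcd1lg2 to Haus8 (0.96), so the neighbouring PD-1 ligands did not lead each other's lists, although r between them was 0.8. Cd200 was nearest to Aldh1b1 (0.984) and Pinx1 (0.983), and Btla to Traf3ip2 (0.984), Flt3 (0.983), the receptor of the dendritic cell growth factor FLT3L, and Fbl (0.978). Among the 9 genes, r was -0.72 between Cd86 and Icosl and 0.73 between Cd200 and Btla.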

How the data were processed

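RNA of 33 libraries of sorted mouse cells was made into cDNA with a SMARTseq kit, per the labels' protocols, and the unstranded count column was used. Raw gene counts per library and, from RSEM, estimated counts were deposited by the authors, as was a joint table of TPM values. STAR, RSEM and mm10 are named in the submitters' processing notes; their versions are not given in the sources used here. The joint table equals the library files for 24027 genes, and 27 gene names in it had been turned into dates. Of each library's reads, 22.6% to 64.0% lay outside the gene counts and stayed out of library sizes.

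Counts were fitted in R 4.3.3 with edgeR 4.0.16 (quasi-likelihood test, TMM, filterByExpr with a minimum count of 10, Benjamini-Hochberg over 14258 genes) in 1 model of 9 populations and the GS or BS prefix of the library names. It gave 12 comparisons and 3 interactions. A gene was called at an adjusted p under 0.05 with an absolute log2 fold of at least 1. Alternatives used DESeq2 1.42.0, limma 3.58.1 on log2(TPM + 1) and log2(TPM + 0.1), RLE size factors, expected counts rounded to whole numbers, no filter, no prefix term, other sets of libraries and sort code as a block. The fit was run on counts simulated from its own fitted spread, for kidney cDC1 against cDC2 only. That run does not cover the smaller groups or the comparisons in which prefix and population cannot be told apart.

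Replicate numbers are in accession order. Sort codes, from file names, pair libraries: their deviations correlated above 0.1 in every pair only between F4/80hi YFP+ and YFP- cells (0.101 to 0.38) and between spleen cDC1 and cDC2 (0.102 to 0.254). Codes SR18_008Kid1 and SR18_008Kid2 begin alike and were kept as separate codes. They cover replicates 1 and 2 of CD11bhi YFP+ cells and of kidney cDC1, which the fit treated as independent. The labels do not say whether these libraries came from separate animals. The 9 genes and the lists were chosen with earlier results of these data known. All 9 are described; from each list at most 4 called genes per comparison could be named, those with the largest absolute fold whose mean reached 10 CPM in the population where it was higher. Like genes are the 3 with the highest correlation among those reaching 10 CPM. Promoter windows come from RefSeq (GRCm38.p6).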

Additional observations from a re-analysis of the deposited data

Results flagged for a closer look

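Single libraries stood far from the rest of their group in 2 of 27 tests of TPM in groups of 4 to 10 libraries. Chance flags about 5% of such groups. Cd86 was at 111.69 TPM in kidney cDC1 replicate 4, the SR17_017 library with the low dendritic cell marker sum. The other 5 held 209.73 TPM or more. On the CPM scale of the fits the gap was smaller, at 343 against 393 to 463. Pdcd1lg2 was at 3.09 TPM in kidney cDC1 replicate 1 and at most 2.05 in the others. In CPM that library held 7.135 and replicate 4 held 7.067.

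Differences between populations that themselves differed between organs or gates, by an interaction term in the edgeR fit, were found for 7 gene and contrast pairs. In cDC1 against cDC2, kidney minus spleen, Cd83 had an interaction of -2.60 and Pdcd1lg2 of 4.28 on the log2 scale. In macrophages against cDC2, kidney minus spleen, the interactions were -2.57 for Cd83, 1.72 for Cd40, 2.92 for Icosl and -2.30 for Btla. For YFP+ against YFP- cells, CD11bhi minus F4/80hi, Cd200 had an interaction of 4.36, which rests on 0 and 13 reads in the CD11bhi YFP- libraries.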

How the results depend on the processing

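Of the alternative values for the genes' folds, 2560 kept their sign and their side of the threshold, 98 lost a call and 54 gained 1. In 92 more the sign changed while the fold was called in neither fit, and in 2 a fold not called before was called with the opposite sign. Both of these were Pdcd1lg2 in macrophages against cDC2, kidney minus spleen, at 2.03 in limma on log2(TPM + 1) with and without the filter, where the count fit gave -0.11. The cause was not tested, here or for the values that follow. Between CD11bhi YFP+ and YFP- cells, 3 of the 9 genes were called by limma on log2(TPM + 0.1) and 0 when only these groups were fitted. Between kidney and spleen cDC2, limma on TPM called 7 with either pseudocount and without the filter. There the TPM scale lay 0.65 log2 units below the counts over 7080 genes. The shares of all genes called in these alternative fits are not given here, so these counts are not read as a result about the 9 genes. The cDC1 to cDC2 interaction had 4 calls when only its groups were fitted. The YFP interaction had 0 calls in limma on log2(TPM + 1), with and without the filter, when only its groups were fitted, and with sort code as a replicate block. With sort code as a replicate block, Cd274 in kidney cDC1 against cDC2 had an adjusted p of 0.0946, Btla in F4/80hi YFP- cells against RPM 0.0597, the Btla macrophage interaction 0.0503 and the Cd200 YFP interaction 0.076. The block gained the Cd80 interaction of cDC1 and cDC2 (0.0298) and changed no other call of the 9 genes. The fit without SR17_017 was chosen after seeing the data.

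Leaving out 1 library at a time gave these ranges of genes called, for which the shares of all genes called are not given here. In F4/80hi YFP+ against YFP- it was 0 to 0, and in CD11bhi YFP+ against YFP- 1 to 4. In CD11bhi against F4/80hi it was 3 to 5 for YFP+ and 3 to 5 for YFP-. Against kidney cDC2 it was 6 to 7 for F4/80hi YFP+, 2 to 2 for CD11bhi YFP+ and 5 to 6 for kidney cDC1. For kidney against spleen it was 2 to 4 in cDC1, 3 to 4 in cDC2 and 5 to 7 in macrophages. In spleen it was 5 to 6 for cDC1 and 5 to 7 for RPM against cDC2. The interactions ranged from 1 to 3 for cDC1 and cDC2, 3 to 4 for macrophages and 0 to 4 for YFP. CD11bhi YFP- replicate 2 gave the 4, the 5 in YFP- cells and the 4 of the YFP interaction. Without spleen cDC1 replicate 1 or 2 the cDC interaction had 1 call, and without kidney cDC1 replicate 4 or spleen cDC1 replicate 3 kidney against spleen cDC1 had 2. Where CD11bhi YFP- cells were left with 1 library, it is assumed to vary like the other groups. Pdcd1lg2 and Cd200 in F4/80hi and CD11bhi YFP- libraries rest on few reads, at 0 to 34.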
